A study of Homo sapiens with 12 samples.

Results

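The genes of oxidative phosphorylation were followed in 3 head and neck squamous cell carcinoma (HNSCC) cell lines under EGFR inhibition. Members were the table's gene symbols that start with MT-, NDUF (leaving out the NDUFAF assembly factors), UQCR, ATP5 or COX followed by a digit from 4 to 8, together with SDHA, SDHB, SDHC and SDHD. The rule took 106 of 33514 gene symbols: 13 protein genes of the mitochondrial genome, 86 nuclear subunit genes and 7 rows counted apart because they are an antisense RNA, a readthrough, a retrocopy or no subunit (NDUFB2-AS1, NDUFV2-AS1, NDUFC2-KCTD14, ATP5MF-PTCD1, UQCRHL, ATP5MGL and ATP5S). At least 1 molecule was counted for 105 of the 106, COX7A1 being the exception. After the filter on low counts 101 remained for testing, made of the 13 mitochondrial genes, 82 of the 86 nuclear genes and 6 of the rows counted apart. Members that failed the filter are given by their counts only.

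Oxidative phosphorylation couples the oxidation of NADH and succinate to ATP synthesis in the inner mitochondrial membrane. Complexes I and II pass electrons through ubiquinone to complex III, cytochrome c carries them on to complex IV, where oxygen is reduced, and complex V makes ATP from the proton gradient that complexes I, III and IV build. Complex II is made of nuclear-encoded subunits alone, whereas the other complexes join core subunits read from the circular mitochondrial genome to subunits read from nuclear chromosomes, so both genomes must supply matching parts. The mitochondrial messages come from long polycistronic transcripts that are cut apart, all but MT-ND6 from the same strand.

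The lines SCC1, SCC6 and SCC25 are HNSCC lines that the study describes as sensitive to cetuximab, an antibody that blocks EGFR. Each line received 100 nM cetuximab every day for 5 days, beginning the day after plating, or PBS as the untreated control, with 2 samples in each of the 6 groups. All 12 samples shared the culture medium with serum, and no group carried a genetic change made for the study. Single cells were profiled with a droplet assay that counts unique molecular identifiers (UMIs) near the 3′ ends of transcripts, and the counts were summed over the cells of each sample. In such sums, fewer cells of a type and less RNA per cell cannot be told apart.

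To place the members that results turn on in the genome, the promoters of the 4 members with the smallest p-values for cetuximab across the lines are shown. Each is the RefSeq sequence of GRCh38.p14 from 250 bases before the transcription start to 50 bases after it, in the direction of transcription. Capitals mark matches to the motif letters searched on both strands: CCAAT, the E-box CACGTG, the ETS core CCGGAAG and the SP1 core GGGCGG. UQCRH lies on the plus strand with its window at chr1:46303448-46303747, ATP5MC1 on the plus strand at chr17:48892537-48892836, NDUFC1 on the minus strand at chr4:139302502-139302801, and NDUFB10 on the plus strand at chr16:1959288-1959587.
UQCRH: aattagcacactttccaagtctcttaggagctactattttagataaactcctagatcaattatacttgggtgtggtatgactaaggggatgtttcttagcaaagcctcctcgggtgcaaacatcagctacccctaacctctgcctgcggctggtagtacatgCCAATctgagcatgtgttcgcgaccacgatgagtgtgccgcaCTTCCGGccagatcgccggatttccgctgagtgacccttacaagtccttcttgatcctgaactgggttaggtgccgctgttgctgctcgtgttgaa
ATP5MC1: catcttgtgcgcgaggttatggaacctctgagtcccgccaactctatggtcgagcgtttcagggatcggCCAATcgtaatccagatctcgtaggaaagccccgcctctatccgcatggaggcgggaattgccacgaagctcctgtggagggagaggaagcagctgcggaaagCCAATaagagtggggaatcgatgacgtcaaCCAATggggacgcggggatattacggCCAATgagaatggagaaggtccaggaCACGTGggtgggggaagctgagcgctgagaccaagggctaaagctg
NDUFC1: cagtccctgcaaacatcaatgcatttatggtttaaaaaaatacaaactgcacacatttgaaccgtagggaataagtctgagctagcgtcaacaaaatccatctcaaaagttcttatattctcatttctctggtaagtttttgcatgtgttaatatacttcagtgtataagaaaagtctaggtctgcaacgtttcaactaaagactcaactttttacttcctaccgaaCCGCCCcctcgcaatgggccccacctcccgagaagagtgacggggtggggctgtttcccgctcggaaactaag
NDUFB10: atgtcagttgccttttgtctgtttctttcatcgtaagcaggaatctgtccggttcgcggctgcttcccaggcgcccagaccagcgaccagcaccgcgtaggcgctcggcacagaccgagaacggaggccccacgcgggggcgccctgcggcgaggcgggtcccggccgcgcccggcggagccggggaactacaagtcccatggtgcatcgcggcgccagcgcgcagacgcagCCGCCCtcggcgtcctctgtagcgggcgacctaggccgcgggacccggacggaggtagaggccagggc
UQCRH held 1 CCAAT and 1 reverse-strand ETS match, ATP5MC1 held 4 CCAAT matches and 1 E-box, and NDUFC1 and NDUFB10 held 1 reverse-strand SP1 match each. Among the 71 of 86 nuclear members that had a promoter in the table, the ETS core was in 20 (28.2%), against 10.7% of all 27305 promoters of the same length. The YY1 core AAGATGGC was in 11 (15.5%) against 3.03%, and the palindromic NRF1 motif in 4 (5.63%) against 1.36%. The SP1 core was in 42 (59.2%) against 44.6%, the E-box in 7 (9.86%) against 7.43%, CCAAT in 25 (35.2%) against 35.7% and TATAAA in 7 (9.86%) against 11.95%. A match is a description of letters and was not tied to binding in these cells.

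The tables held 23914 cells, 961 to 2854 per sample, and 57057402 to 112170073 UMIs per sample. Between 1 and 13 cell barcodes were shared by any 2 samples. All 8 squamous markers listed (KRT5, KRT14, KRT17, TP63, SFN, EPCAM, EGFR and DSG3) were counted in every group, some of them barely in SCC6. There KRT14, KRT5 and DSG3 had 0.42 to 2.52, 1.16 to 4.47 and 0.16 to 0.27 CPM (UMI counts scaled to libraries of equal size by TMM and edgeR). They had 1154 to 2285, 324 to 577 and 8.89 to 10.8 CPM in SCC1, and 2106 to 4675, 1002 to 2281 and 22.2 to 30.6 in SCC25. The 11 markers of blood, fibroblast and endothelial cells summed to between 16.1 and 32.2 CPM in the SCC1 and SCC6 samples and to between 137 and 214 in SCC25. The blood markers PTPRC, CD3E and HBB had 15, 6 and 19 UMIs over all samples. CD68, the other blood marker listed, had 119 to 205 CPM in SCC25, most of the sum there. It had 6.94 to 17.0 CPM in SCC1 and 3.30 to 30.5 in SCC6. The samples labelled with replicate number 2 stood apart from those labelled 1 in every group: 4762 of 17897 tested genes (26.6%) differed by that number, and the number-2 sample was the deeper of the pair in 6 of 6 groups. The number moved many members too, so treatment is given without and, where that changed a call, with the replicate number as a block.

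**Figure D1:**
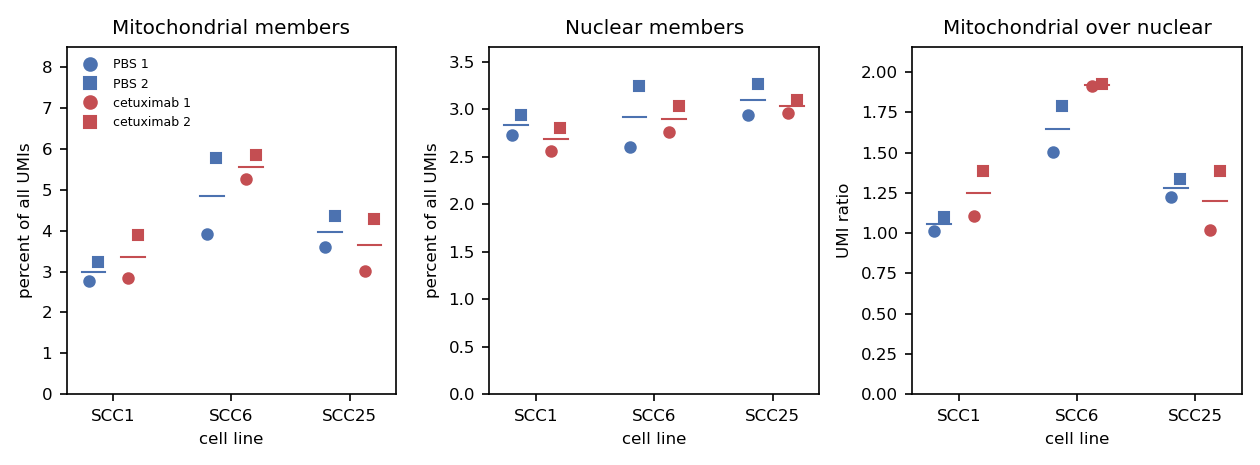
Percent of all UMIs taken by the 13 mitochondrial and the 86 nuclear members, and their UMI ratio, in each of the 12 samples by line (circles number 1, squares number 2, bars the mean of 2). Samples with cetuximab (red) and PBS (blue) overlap in both shares in every line, and SCC6 holds the highest ratios, from 1.503 to 1.92.

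The 13 mitochondrial genes and the 86 nuclear genes each took a few percent of all UMIs, and SCC6 stood highest on the mitochondrial side. In SCC1, the mitochondrial genes took 2.76% and 3.24% of UMIs in PBS and 2.84% and 3.89% with cetuximab. In SCC6 their share was 3.91% and 5.79% in PBS and 5.27% and 5.85% with cetuximab, and in SCC25 3.59% and 4.35% in PBS and 3.01% and 4.29% with cetuximab. The treated and untreated samples overlapped in every line. For the nuclear genes the shares were 2.73% and 2.94% in PBS and 2.57% and 2.81% with cetuximab in SCC1, 2.60% and 3.24% against 2.76% and 3.04% in SCC6, and 2.94% and 3.27% against 2.97% and 3.099% in SCC25. These too overlapped in every line.

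Mitochondrial UMIs per nuclear UMI of the same sample numbered 1.01 and 1.10 in SCC1 with PBS and 1.11 and 1.39 with cetuximab. SCC6 gave 1.503 and 1.79 in PBS and 1.91 and 1.92 with cetuximab. SCC25 gave 1.22 and 1.33 in PBS and 1.02 and 1.38 with cetuximab. On the log2 scale the group means went from 0.08 ± 0.08 (SD, n = 2) to 0.31 ± 0.23 in SCC1, from 0.71 ± 0.18 to 0.94 ± 0.01 in SCC6 and from 0.35 ± 0.09 to 0.25 ± 0.31 in SCC25. The differences were 0.23, 0.23 and -0.11, beside SDs of up to 0.23, 0.18 and 0.31 in the groups compared. With 2 samples against 2 the smallest two-sided p that an exact permutation test can give within 1 line is 0.333. Taken by pairs of equal number, SCC1 differed by 0.13 and 0.33, SCC6 by 0.35 and 0.11, and SCC25 by -0.27 and 0.05. Treated samples lay above untreated ones in SCC1, by a narrow margin, and in SCC6, and overlapped them in SCC25. This ratio does not depend on how libraries are scaled to each other. The share of cytosolic ribosomal protein genes, which moved beside it, went from 21.8% and 23.2% to 17.3% and 19.1% in SCC1, from 34.2% and 27.8% to 28.5% and 23.0% in SCC6, and from 26.2% and 22.0% to 20.3% and 20.02% in SCC25, and its part in the ratio was not tested.

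Within the mitochondrial genome the 3 complex IV genes took between 47.5% and 66.9% of the mitochondrial UMIs. Levels are given in CPM, from an assay of 3′ ends with no scaling for length, with the PBS samples before the cetuximab samples and replicate number 1 before 2. MT-CO1, the catalytic subunit of cytochrome c oxidase, had 5312 and 4942 CPM in SCC1 with PBS and 7053 and 6779.9 with cetuximab. It had 11070.6 and 8304 against 10930.0 and 8935 in SCC6, and 6079.7 and 7367 against 6468 and 7992 in SCC25. Both treated samples were above both untreated ones in SCC1 and the groups overlapped in the other lines. The change in SCC1 was 0.43 ± 0.20 (log2 ± SE) with a Benjamini-Hochberg adjusted p-value (FDR) of 0.609 in edgeR's quasi-likelihood test without a block, and 0.43 ± 0.08 with an FDR of 0.0295 with the replicate block.

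MT-CO2, the subunit that receives electrons from cytochrome c, had 4185 and 5441 CPM against 4728 and 6893 in SCC1, 10569.8 and 15112 against 11969 and 14869 in SCC6, and 6722 and 9649 against 6887 and 9844 in SCC25. MT-CO3, the other core subunit, had 3861 and 4431 against 2779 and 4015 in SCC1, 9474 and 12140.5 against 11574 and 9742 in SCC6, and 8213 and 7598 against 5516 and 6184 in SCC25. For each of the 3 genes all 4 SCC6 samples lay above the other 8 samples. The treated SCC25 samples lay below both untreated ones for MT-CO3, by a log2 value of -0.43 ± 0.22, which missed the threshold. MT-ND1, a membrane subunit of complex I, had 2514 and 2575 against 2873 and 2940.2 in SCC1, 1721 and 2054 against 2267 and 1918 in SCC6, and 2771 and 2591 against 2035 and 2231 in SCC25. Its samples did not overlap in SCC1, where the treated ones were higher, nor in SCC25, where they were lower.

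MT-ND6, the complex I subunit read from the opposite strand, was the scarcest of the mitochondrial complex I genes after MT-ND4L by the mean over the 12 samples. It had 158 and 108 CPM in SCC1 with PBS and 113 and 81.3 with cetuximab, 183 and 70.0 against 106 and 46.3 in SCC6, and 269.9 and 124 against 143 and 96.5 in SCC25. Each treated sample lay below the untreated sample of its own number, while the groups overlapped in every line. The share of all genes with this order was not counted, and the numbers are not shown to pair samples within SCC1 or SCC6. Across the lines the log2 change was -0.64 ± 0.28 without the block, which missed the threshold, and -0.59 ± 0.09 with the block (edgeR FDR 0.0111). In SCC6 alone it was -0.74 ± 0.53 (FDR 0.49) without the block and -0.69 ± 0.15 (FDR 0.0178) with it.

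MT-ATP6, the proton channel subunit of complex V, had 863 and 2275 CPM against 569.8 and 1829 in SCC1, 2987 and 6180.4 against 2785 and 5053 in SCC6, and 1796 and 3667 against 1283 and 2831 in SCC25. Here too each treated sample was below the untreated sample of its own number. The log2 change across the lines was -0.34 ± 0.35 without the block, which missed the threshold, and -0.36 ± 0.08 with it (edgeR FDR 0.0239). MT-ATP8, the small subunit whose reading frame overlaps MT-ATP6, had only 3.29 to 9.19 CPM in the 12 samples, and its reads cannot be cleanly told apart from those of its neighbor. The remaining genes ranged from 2222 to 8974 CPM for MT-ND4, 1561 to 5875 for MT-CYB, 1457 to 5079 for MT-ND2, 295 to 1138 for MT-ND3, 364 to 890.4 for MT-ND5 and 44.1 to 95.9 for MT-ND4L. None of these 6 genes passed the threshold for cetuximab in any line, with or without the block.

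**Figure D2:**
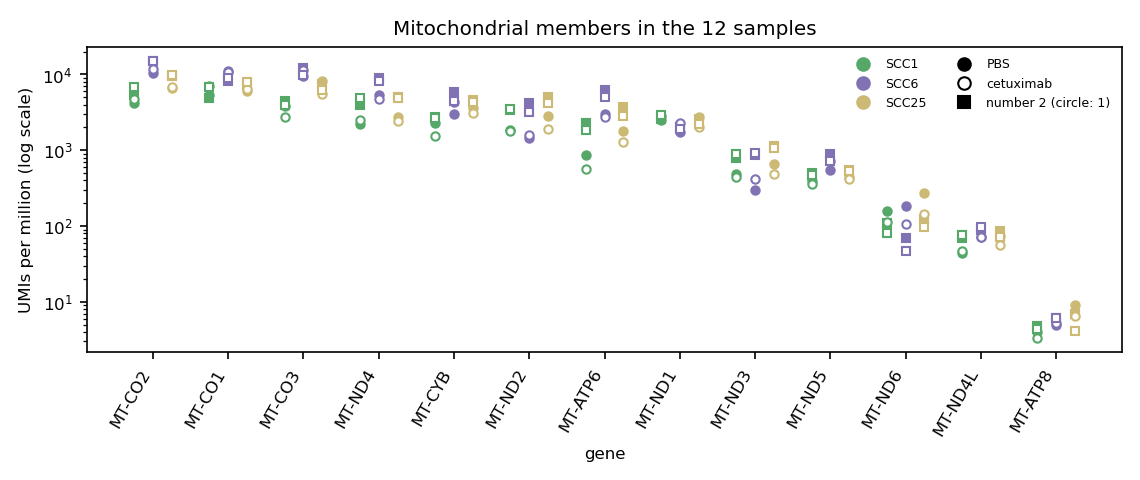
Level of each mitochondrial member in CPM (log scale) in the 12 samples, ordered by mean, with filled symbols for PBS, open ones for cetuximab, circles for number 1 and squares for number 2. The 3 MT-CO genes lead, all 4 SCC6 samples lie above the other 8 in them, and circles and squares part in MT-ATP6, MT-ND2, MT-ND3 and MT-ND6.

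Taking all 13 mitochondrial genes, the log2 change with cetuximab had medians of 0.03, 0.01 and -0.33 in SCC1, SCC6 and SCC25, with 6, 6 and 11 of 13 negative. For the 82 tested nuclear genes it was -0.12, -0.28 and -0.09, with 71, 71 and 63 negative, while the medians over all 17897 genes were 0.00, 0 and -0.01. Single samples moved these medians. Leaving out 1 sample of the line moved the mitochondrial median over a range from -0.29 to 0.38 for SCC1, from -0.19 to 0.28 for SCC6 and from -0.46 to 0.11 for SCC25, which reached 0.11 without SCC25 PBS 2 and again without SCC25 cetuximab 1. The nuclear median went to -0.40 without SCC6 PBS 1 or SCC6 cetuximab 2, to -0.10 without SCC6 PBS 2 and to -0.12 without SCC6 cetuximab 1. It lay between -0.28 without SCC1 PBS 1 and -0.00 without SCC1 PBS 2, when 41 of 82 were negative. In SCC25 it was 0.09 without SCC25 PBS 2, with 30 of 82 negative, -0.01 without SCC25 cetuximab 1, and -0.22 and -0.16 without the other samples of the line. Nuclear genes with both treated samples below both untreated ones numbered 23 of 82 in SCC1, 33 in SCC6 and 14 in SCC25, against 20.4%, 21.4% and 15.3% of all genes. The opposite order was seen for 2 nuclear genes in each line, against 22.3%, 25.5% and 14.4% of all genes. Among mitochondrial genes, 2 were above in SCC1 (MT-CO1 and MT-ND1), none separated in SCC6, and 4 were below in SCC25 (MT-ATP8, MT-CO3, MT-ND1 and MT-ND4L). The lower order held in all 3 lines for 9 of 82 nuclear genes: NDUFA2, NDUFA7, NDUFB10, NDUFS7, NDUFS8, UQCRH, COX7C, ATP5F1D and ATP5MC1. Over all genes 3.25% had it, and 3.86% had the opposite order in all 3 lines, which no member had.

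Without the block, SCC6 was the only line with a member past the threshold: 2 nuclear members were lower there, against 1.3% of all genes called lower and 3.81% called in either direction. In SCC1 no member was called (0.0168% of all genes were), 1 had an unadjusted p under 0.05, and DESeq2 called no member while it called 1.7% of all genes. In SCC25 edgeR called no member and no gene (0%), and no member had an unadjusted p under 0.05 in it. DESeq2 called no member and 0.617% of all genes there, with an unadjusted p under 0.05 for 3 members. In SCC6 DESeq2 called 7 members and 9.6% of all genes. With the replicate block, 27 members were lower in SCC6 (10.1% of all genes lower, 20.1% called): 25 nuclear subunit genes, MT-ND6 and ATP5S. Of the 25, 10 belonged to complex I, 2 to complex II, 3 to complex III, 4 to complex IV and 6 to complex V. The block gave 1 call in SCC1 (MT-CO1, with 2.46% of all genes higher and 4.45% called) and none in SCC25 (0.978% called).

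**Figure D3:**
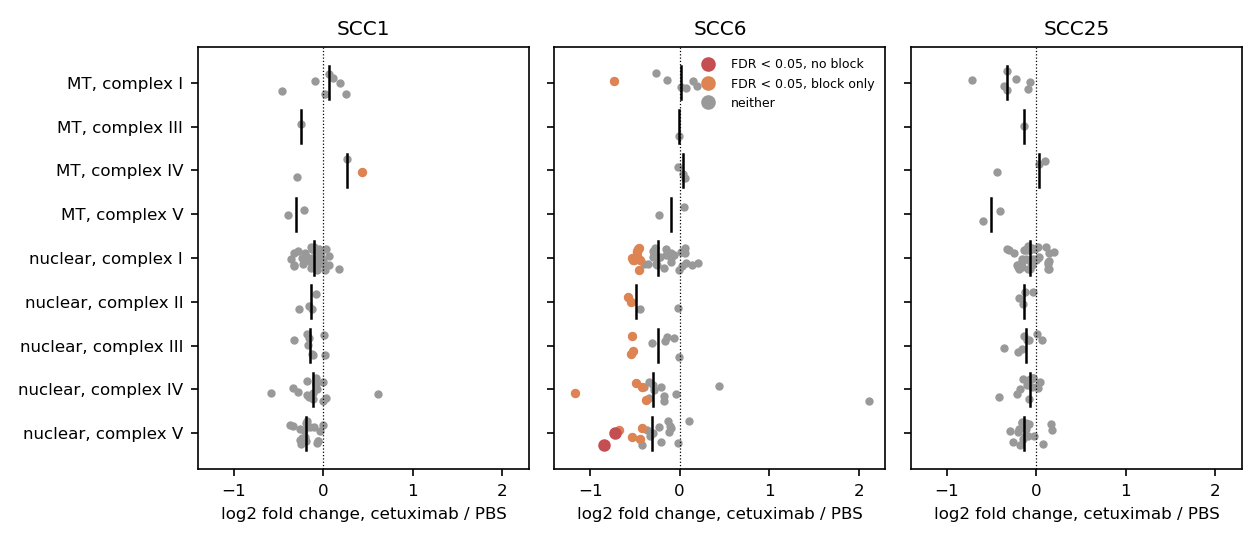
Log2 fold change with cetuximab for each tested mitochondrial (MT) and nuclear member by complex in the 3 lines, with the median as a black bar and colors for an edgeR FDR under 0.05 without the block, with the block only, or neither. With TMM scaling the nuclear medians lie left of 0 in every complex and line, and the calls gather in SCC6.

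In SCC6 other features moved beside these members. COL1A1 and PDGFRB, markers of fibroblasts, rose by 3.45 ± 0.41 and 4.67 ± 0.78 on the log2 scale (edgeR FDR 0.00631 and 0.0144), PDGFRB to no more than 1.36 CPM. The other fibroblast markers listed, COL1A2 and DCN, reached no more than 0.06 and 0.30 CPM in any SCC6 sample. CD68, a macrophage marker, fell by 2.55 ± 0.47 (edgeR FDR 0.0202). The summed level of all 11 such markers was 16.1 to 31.7 CPM in untreated and 24.5 to 27.7 in treated SCC6 samples, with 3 and 2 of the 11 at 0, and the summed squamous markers were at 1165 to 1359 and 2412 to 3190 CPM. KRT17 made most of the squamous sum, with 922 and 492 CPM in untreated and 1963 and 2438 in treated samples. It was the only one of the 8 called without the block (3.81% of all genes called). With the block 5 of the 8 were higher and EPCAM was lower (20.1% called). The list of RNA quality and stress genes (10) had a median of -0.65 in SCC6, with none called without the block and DNAJB1, a heat shock co-chaperone, lower with it (-1.51 ± 0.43, FDR 0.0404). SCC6 PBS 1 stood above SCC6 PBS 2 in several of these genes, with 264 against 25.3 CPM for DDIT3, 410.1 against 111 for DNAJB1 and 291 against 140.4 for HSPA1A, where the treated samples had 22.1 and 26.5, 67.4 and 83.1, and 31.9 and 111. Cells over 20% mitochondrial were 0.33% and 0.644% of the untreated and 1.02% and 2.0% of the treated SCC6 cells. The part of these in the SCC6 result was not tested. Scaling mattered in SCC6 as well: with library totals alone in place of TMM, the median of all genes shifted by 0.225 and that of the nuclear members became -0.06. Relative to all genes the nuclear median was -0.28 under either scaling and the mitochondrial one 0.01 and 0.00.

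Complex I, the NADH dehydrogenase, had 37 nuclear members, all tested, and their summed level was 7354 and 8486 CPM in SCC1 with PBS and 7013 and 7657 with cetuximab. It was 9456 and 11856 against 8908 and 10147 in SCC6 and 9295 and 10858 against 9587 and 9831 in SCC25. NDUFS5, NDUFB9 and NDUFS6, accessory subunits, took the most UMIs of the complex, with means of 921, 895 and 540.2 CPM over the 12 samples. NDUFB10, an accessory subunit of the membrane arm, had 187 and 200.5 CPM against 143 and 167 in SCC1, 306 and 287 against 245 and 219 in SCC6, and 457 and 447 against 362 and 370.3 in SCC25. The treated samples were lower in every line without overlap, and across the lines the log2 change was -0.33 ± 0.09 (FDR 0.0615, and 0.0177 with the block).

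NDUFC1, a small accessory subunit, had 161 and 159.6 CPM against 125 and 125 in SCC1, 155 and 147 against 112 and 109 in SCC6, and 203 and 155 against 158 and 127 in SCC25. Its groups separated in SCC1 and SCC6 and overlapped in SCC25, and its change across the lines was -0.38 ± 0.10 (FDR 0.0588, and 0.0136 with the block). NDUFV1, which binds NADH and the flavin, had 120.3 and 164 CPM against 80.1 and 124 in SCC6, and its FDR was 0.452 without and 0.0319 with the block. NDUFS7, an iron-sulfur subunit near the ubiquinone site, had 168 and 165 against 117 and 126 CPM in SCC6, with an FDR of 0.15 and, with the block, 0.0304. Its treated samples lay below its untreated ones in all 3 lines.

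Complex II, succinate dehydrogenase, is also an enzyme of the tricarboxylic acid cycle. SDHA, its flavoprotein, had 45.5 and 79.5 CPM against 46.1 and 66.2 in SCC1, 88.1 and 164 against 47.6 and 138 in SCC6, and 45.0 and 128 against 53.4 and 105 in SCC25. SDHB, the iron-sulfur subunit, had 121 and 184 against 120.4 and 159 in SCC1, 110.1 and 173 against 68.3 and 121 in SCC6, and 182 and 265 against 172 and 220.3 in SCC25. In both genes the sample numbered 2 was above the sample numbered 1 in 6 of 6 groups, and the treatment groups overlapped in every line.

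The membrane anchor SDHC had 164 and 204 CPM against 166 and 181 in SCC1, 127 and 188 against 134 and 179 in SCC6, and 225 and 356 against 249 and 319 in SCC25. The other anchor, SDHD, had 99.0 and 129 against 84.6 and 106 in SCC1, 50.1 and 55.6 against 26.3 and 46.4 in SCC6, and 98.6 and 173 against 102 and 143 in SCC25. SDHB and SDHD fell in SCC6 with the block, by log2 values of -0.60 ± 0.12 (FDR 0.014) and -0.60 ± 0.17 (FDR 0.0449), and neither was called without it.

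Complex III, the cytochrome bc1 complex, had 8 nuclear members with medians of -0.14, -0.24 and -0.12 in SCC1, SCC6 and SCC25. UQCRH, the hinge protein beside cytochrome c1, had 538 and 609 CPM against 417 and 496 in SCC1, 1534 and 1395 against 1057 and 979 in SCC6, and 1178 and 1102 against 859 and 916 in SCC25. No treated sample reached an untreated one of its line. Across the 3 lines it was 1 of 2 members called without the block (1.13% of all genes lower, 3.67% called), at -0.41 ± 0.09 with an FDR of 0.0354 (0.013 with the block). UQCRH has a retrocopy, UQCRHL, so the split of reads between them is uncertain. UQCRFS1, the Rieske iron-sulfur protein, had 306 and 385 CPM against 206 and 272 in SCC6 and was called there with the block, at -0.54 (FDR 0.0142). UQCR10 and UQCRQ, small subunits, followed UQCRH in level with means of 602 and 518 CPM.

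Complex IV, cytochrome c oxidase, had 19 nuclear members, of which 15 were tested. COX4I1, NDUFA4 and COX7C took the most UMIs, with means of 1136, 929 and 798 CPM. COX4I1, the regulatory subunit with which assembly of the enzyme begins, had 944 and 1096 CPM against 931 and 962 in SCC1, 1579.6 and 1528 against 1165 and 1192 in SCC6, and 910.4 and 1193 against 1065 and 1063 in SCC25. It separated in SCC6 without being called, and its FDR with the block was 0.0501. COX8A, a single-span subunit, had 592 and 585 against 435 and 493 in SCC1, where its change of -0.34 was among the 3 largest of nuclear members with a mean of at least 10 CPM and was not called (FDR 0.677). Called in SCC6 with the block were COX5A, COX6B2, COX7B and COX7C.

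Complex V, the ATP synthase, held both members that were called in SCC6 without the block. ATP5MC1, which encodes a precursor of the c ring, had 388 and 483 CPM in untreated and 225 and 259 in treated SCC6 cells. The same gene had 255 and 264 against 195 and 217 in SCC1 and 432 and 435 against 375 and 352 in SCC25. Treated samples were below untreated ones in all 3 lines. The log2 change was -0.85 ± 0.18 in SCC6 (FDR 0.0307, and 0.00277 with the block), -0.34 in SCC1 (FDR 0.666) and -0.25 in SCC25 (FDR 0.973). Across the lines it was -0.48 ± 0.12 with an FDR of 0.0495 (0.028 with the block).

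ATP5F1D, the delta subunit of the central stalk, had 443 and 424 CPM against 255 and 273 in SCC6, 211 and 220.4 against 180.0 and 196 in SCC1, and 328 and 379 against 312 and 326 in SCC25. Its groups did not overlap in any line, and it fell by 0.72 ± 0.16 on the log2 scale in SCC6 (FDR 0.0414, and 0.00531 with the block). The beta subunit ATP5F1B, which holds the catalytic sites, had 334 and 576 CPM against 358 and 516 in SCC1, 466 and 748 against 234 and 525 in SCC6, and 376 and 954 against 396 and 806 in SCC25. Its spread between samples of 1 group was wide, and its SCC6 change of -0.68 ± 0.54 (FDR 0.534) became -0.75 ± 0.15 (FDR 0.0124) with the block. The alpha subunit ATP5F1A had a block value of -0.59 (FDR 0.0278) in SCC6. ATP5IF1, the inhibitor that stops the enzyme from running in reverse, was called across the lines with the block, at -0.25 (FDR 0.0439). ATP5F1E, ATP5MG and ATP5MC3 took the most UMIs of the complex, with means of 1550.2, 832 and 619.5 CPM.

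With the block, 11 members were lower across the lines and none higher (5.55% of all genes lower, 11.6% called): NDUFB10, NDUFB9, NDUFC1, NDUFS7, UQCRH, COX5A, ATP5IF1, ATP5MC1, ATP5MC2, MT-ND6 and MT-ATP6. Without the block DESeq2 called 6 members and 10.2% of all genes across the lines. Whether cetuximab acted differently on a member by line was tested as an interaction of line and treatment. In edgeR no member was called there, none had an unadjusted p under 0.05, and 0% of all genes were called. DESeq2 called no member and 1.61% of all genes, with an unadjusted p under 0.05 for 2 members. With the block 1.29% of all genes and no member were called, the smallest FDR of a member being 0.152. The calls made in SCC6 alone are therefore not shown to differ from the other lines.

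The untreated lines differed from each other in 40 members (59.5% of all genes did): 3 mitochondrial, 34 nuclear and 3 counted apart. With the block 78 did, against 75.5% of all genes. SCC6 against SCC1 gave 3 mitochondrial members higher and 21 nuclear members higher with 5 lower (40.2% of all genes called, 21.5% higher and 18.6% lower). SCC25 against SCC1 gave 2 mitochondrial and 17 nuclear members higher with 3 nuclear lower (40.8%, 23.4% higher and 17.3% lower), and SCC25 against SCC6 gave 1 mitochondrial and 12 nuclear higher with 9 nuclear lower (40.9%, 22.2% higher and 18.7% lower). These 3 comparisons share samples. The counts of all members higher and lower in SCC6 against SCC1 were 25 and 6 with TMM and 14 and 15 with library totals alone, and those in SCC25 against SCC1 were 19 and 6 with TMM and 16 and 10 with totals, while the median of all genes moved to -0.31 and -0.15 under totals.

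COX6B1, a subunit at the dimer interface of complex IV, had 976 and 854 CPM in untreated SCC6, 289 and 294 in SCC1 and 604 and 599 in SCC25. SCC6 was above SCC1 by 1.65 ± 0.17 on the log2 scale (FDR over the 3 lines 7.81e-05). NDUFB9 had 1411 and 1728 CPM in SCC6, 419 and 491 in SCC1 and 976 and 956 in SCC25, a log2 difference of 1.79 ± 0.19 between SCC6 and SCC1 (FDR over the lines 0.00011). SDHD went the other way, at -1.11 for SCC6 against SCC1 and 1.36 for SCC25 against SCC6. NDUFA8, an intermembrane-space subunit of complex I, was 1.68 higher in SCC25 than in SCC1, and NDUFA3, another accessory subunit, was 1.84 lower on the log2 scale in SCC25 than in SCC6, with 75.7 and 62.2 against 272 and 221 CPM. The mitochondrial members called over the lines were MT-CO1, MT-CO2 and MT-CO3 (FDR 0.00899, 0.00665 and 0.00137), at 0.92, 1.42 and 1.38 for SCC6 over SCC1.

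Several complex IV genes have a paralog restricted to particular tissues, and most of these were nearly silent. COX4I2, the lung form, had 6 UMIs in all samples together, COX6A2, the heart and muscle form, 7, COX7B2 2, and COX7A1, the muscle form, none. COX8C had 96. The partners COX6A1 and COX7A2 had means of 755 and 711 CPM. NDUFA4L2, a paralog of NDUFA4 known as a hypoxia-inducible gene, had 5763 UMIs and was the member with the smallest p between untreated lines (FDR 1.82e-05). It was at 12.2 and 11.1 CPM in SCC25, 2.74 and 2.18 in SCC1 and 1.72 and 1.74 in SCC6, so SCC25 exceeded SCC1 by 2.25 ± 0.26 and SCC6 by 2.76 on the log2 scale.

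With cetuximab NDUFA4L2 stood at 12.9 and 8.26 CPM in SCC25, 3.63 and 3.91 in SCC1 and 2.42 and 2.27 in SCC6, and no line was called (FDR 1, 0.505 and 0.372). After each cell was thinned to 15000 UMIs, which left out 851 cells with fewer, it was found in 12.2% and 11.1% of untreated SCC25 cells, 4.86% and 3.84% of SCC1 cells and 2.22% and 2.42% of SCC6 cells. Without thinning these shares were 21.5% and 23.0%, 13.9% and 10.8%, and 5.09% and 6.07%. PTPRC, which these cells should lack, was in no more than 0.251% of the thinned cells of any sample after the same thinning.

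COX6B2, the testis form of COX6B1, had 1924 UMIs. In SCC6 it was at 6.49 and 3.67 CPM in PBS and 1.82 and 2.69 with cetuximab, and in 8.22% and 4.97% against 2.78% and 4.33% of thinned cells (16.4% and 11.6% against 4.59% and 12.5% unthinned). Its change of -1.17 ± 0.38 was called only with the block (FDR 0.118 and 0.0404). In SCC1 it stayed at 0.15 to 0.39 CPM and in SCC25 at 1.36 to 1.82 CPM. Untreated SCC6 lay 4.0 above SCC1 on the log2 scale.

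The genes that build and feed the complexes were read from lists, with the median of all genes between -0.01 and 0.01 in each comparison. The counts of genes lower in SCC6 stand beside 1.3% of all genes lower without and 10.1% with the block. Assembly factors (46 tested) had a median of -0.29 in SCC6, with 1 lower (COA6, needed for the delivery of copper to complex IV, -0.76 ± 0.18, FDR 0.0431) and 14 lower with the block. Genes for ubiquinone synthesis, cytochrome c and other electron carriers (20) had a median of -0.62, with none called and 13 lower with the block, CYC1 and CYCS among them at -0.86 and -0.64. CYC1, the heme subunit of complex III that the symbol rule leaves out, had 444 and 544 CPM in untreated and 222 and 331 in treated SCC6 cells.

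The tricarboxylic acid cycle list (17) had a median of -0.44 in SCC6 with none called, and 7 lower with 1 higher under the block. Mitochondrial DNA expression genes (30) had a median of -0.39 with none called and 11 lower under the block, and mitochondrial ribosomal proteins (78) -0.41 with 4 and 35 lower. Cytosolic ribosomal proteins (78) had -0.47, with none called and 69 lower under the block, a median further below 0 than that of the nuclear members. In SCC1 the medians of these 6 lists, in the same order, were -0.14, -0.14, -0.05, -0.09, -0.19 and -0.35, and in SCC25 they were -0.15, -0.19, -0.11, -0.01, -0.12 and -0.25, with no gene called without the block. With the block, 14 cytosolic ribosomal genes and TFAM, a mitochondrial DNA expression gene, were lower in SCC1, beside 357 of 17897 genes. None was called in SCC25. Across the lines the lists had 2, 0, 0, 1, 1 and 8 genes lower without the block, beside 1.13% of all genes. With the block they had 10, 5, 0, 1, 15 and 70 lower, beside 5.55%. Proliferation genes (16) had medians of -0.82, -0.37 and -0.42 in SCC1, SCC6 and SCC25, with none called without the block. With it 10, 2 and 0 were lower, beside 357, 1810 and 37 of 17897 genes lower. Their part, and that of the ribosomal genes, in the members' changes was not tested.

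Of 11 regulators of mitochondrial genes, 2 fell in SCC6 without the block. ESRRA, a nuclear receptor that binds promoters of oxidative phosphorylation genes, had 58.3 and 48.2 CPM in untreated and 29.6 and 28.3 in treated SCC6 cells, a change of -0.88 ± 0.19 (FDR 0.0351). MYC, a transcription factor that binds E-boxes, had 482 and 242 against 65.7 and 138, a change of -1.83 ± 0.42 (FDR 0.0407). Neither was called in SCC1 or SCC25, and the groups did not overlap in SCC6 for either gene. Across the lines PPARGC1B, a coactivator of ESRRA, changed by -0.73 ± 0.18 (FDR 0.0495). Its levels were low, with 0.26 to 0.57 CPM in SCC1, 0.98 to 2.17 in SCC6 and 1.42 to 2.63 in SCC25. PPARGC1A, its better known relative, had no UMI in any SCC1 or SCC6 sample and 0.68 to 2.66 CPM in SCC25.

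Members differed more by replicate number than by treatment. This comparison was added after the samples numbered 2 were seen to stand apart. In a fit with a mean for each group and 1 term for the number, 47 members were higher and 7 lower in samples numbered 2, against 13.8% and 12.8% of all genes. They were 8 mitochondrial and 39 nuclear genes higher, and MT-ND6, 4 nuclear genes and 2 rows counted apart lower. In all 6 groups the number-2 sample was above for 8 of 13 mitochondrial and 39 of 82 nuclear genes (14% of all genes) and below for 1 and 5 (14.6%).

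UQCRB, a ubiquinone-binding protein of complex III, had 179, 187, 237, 198, 166 and 169 CPM in the 6 samples numbered 1 and 849.8, 757, 857, 687, 859 and 788 in those numbered 2, taking SCC1, SCC6 and SCC25 in turn with PBS before cetuximab. The 2 sets were far apart, by 2.08 ± 0.10 on the log2 scale (edgeR FDR 9.57e-06). COX7B, a small complex IV subunit, had 164, 159.6, 163, 128, 231 and 255 against 439, 418, 399, 291, 613.5 and 541, or 1.30 ± 0.08 (FDR 5.13e-05). NDUFB3, a complex I accessory subunit, differed by 1.09 ± 0.10 (FDR 0.000226) and MT-ATP6 by 1.19 ± 0.11 (FDR 0.000285). ATP5ME, a small membrane subunit of complex V, went the other way with 355, 363, 291, 266, 271 and 253 against 227, 216, 202, 191, 170.05 and 153, or -0.63 ± 0.08 (FDR 0.000634).

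**Figure D4:**
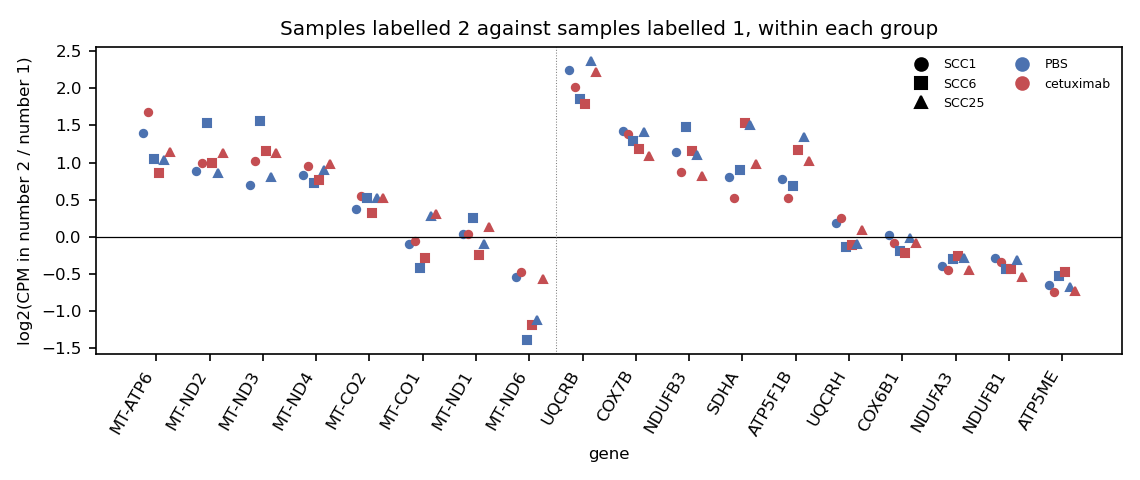
Log2 ratio of CPM in the sample numbered 2 over the sample numbered 1 for 18 members in the 6 groups (symbol for the line, color for the treatment), mitochondrial genes left of the dotted line. All 6 groups lie above 0 for UQCRB, COX7B, NDUFB3 and MT-ATP6 and below 0 for MT-ND6 and ATP5ME.

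The number changed the balance among mitochondrial messages and not only their total. MT-ATP6 UMIs per MT-CO1 UMI were 0.162 and 0.460 in SCC1 with PBS, 0.0808 and 0.270 with cetuximab, 0.270 and 0.744 in SCC6 with PBS, 0.255 and 0.566 with cetuximab, 0.295 and 0.498 in SCC25 with PBS and 0.198 and 0.354 with cetuximab. The number-2 sample had the higher ratio in 6 of 6 groups. MT-CO1 differed by -0.05 and MT-ND1 by 0.02 between the numbers, and neither was called, while MT-ND4 differed by 0.86 ± 0.08 (FDR 0.000257) and MT-ND6 by -0.88 ± 0.14 (FDR 0.00143). The study's methods say of the duplicates only that they were sequenced, which does not tell whether the number marks separate cultures or repeated sequencing.

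**Figure D5:**
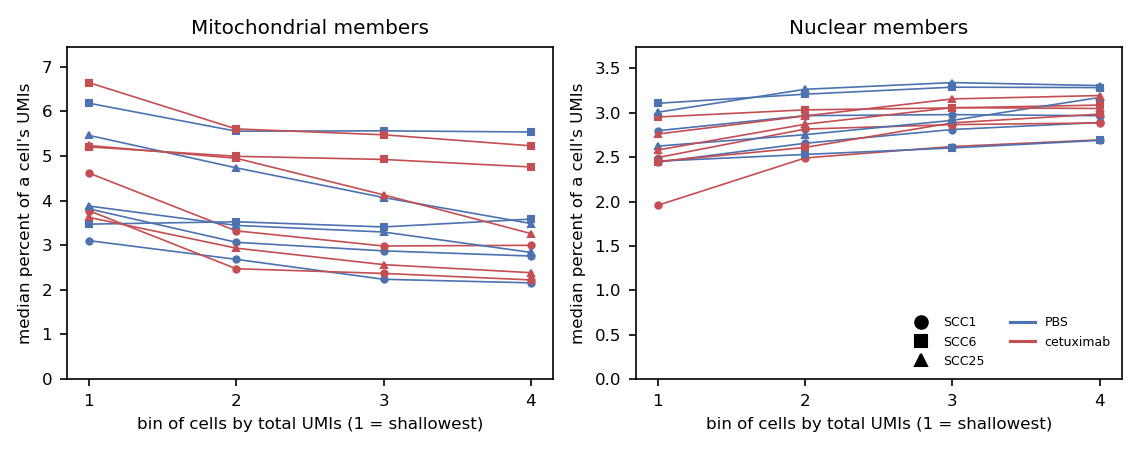
Median percent of a cell's UMIs from mitochondrial (left) and nuclear (right) members in 4 equal bins of each sample's cells by total UMIs, 1 line per sample (symbol for the cell line, color for the treatment). The mitochondrial share falls from the shallowest to the deepest bin in 11 of 12 samples and the nuclear share rises in 12 of 12.

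Within a sample, the mitochondrial share went with a cell's depth. When the cells of each sample were split into 4 equal bins by total UMIs, the median mitochondrial share was lower in the deepest than in the shallowest bin in 11 of 12 samples, for example 3.49% against 5.46% in the second untreated SCC25 sample. The first untreated SCC6 sample, at 3.59% and 3.47%, was the exception. The median nuclear share was higher in the deepest bin in 12 of 12 samples, as from 1.96% to 2.69% in the first treated SCC1 sample. A share and the depth it is divided by are not independent measures. After thinning every cell to 15000 UMIs, the 90th percentile of mitochondrial UMIs per cell was 1.76 to 3.40 times the 10th, and that of nuclear UMIs 1.30 to 1.75 times. Spearman's correlation between the mitochondrial and nuclear counts of the same thinned cells lay between -0.34 and 0.02 over the 12 samples, each over 938 to 2652 cells that share a library.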

How the data were processed

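Single-cell RNA-seq (10x Genomics Chromium 3′ chemistry) of 12 samples was used, each sample a deposited matrix of counts, that is, whole UMI counts per gene and cell made by the authors with Cell Ranger on GRCh38 per the submitters' processing notes. Their versions are not stated there. All deposited cells entered, with no further filter and no doublet caller, and 0 columns of other samples were left unused. The tables hold 33538 gene rows, and 24 rows that repeat a symbol were added to it. Counts were summed per sample, so the depth behind a value is the sample's total of 57057402 to 112170073 UMIs, with a median of 24078.5 to 54864 UMIs per cell. Reads of nuclear copies of mitochondrial DNA and of near-identical retrocopies may have been split by the authors' counting, and values of such members are uncertain.

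Genes were filtered with edgeR's filterByExpr (17897 of 33514 kept), scaled by TMM and tested with edgeR 4.0.16 (glmQLFit and glmQLFTest) on 6 group means from all 12 samples, or, across the lines, with line and treatment as additive terms. Calls are at an FDR under 0.05 over all genes tested. The study's own tests of its single-cell data ran over cells, whereas samples are the replicates here. Its bulk RNA-seq and ATAC-seq, which it tested with DESeq2 and DiffBind, were not used here. Neither the labels nor the study's methods, which mention only sequencing in duplicate, say whether the 2 samples of a group came from separate cultures, so p-values measure the spread between libraries, which may be technical. The labels' replicate numbers were used as a block within lines. Deviations of equal-numbered samples correlated at 0.377, 0.349 and 0.598 within SCC1, SCC6 and SCC25 and at 0.177 to 0.428 between lines. Only SCC25 lay above the range between lines. The values show a difference by number that the lines share, and do not show that the numbers pair treated with untreated samples within SCC1 or SCC6. DESeq2 1.42.0, other scalings, no filter, a shared replicate term, cell filters and the omission of each sample were alternatives. The script was tested on simulated counts that held no difference by line or replicate number. That test therefore did not cover the difference by number seen here. Exact 95% binomial intervals, which cover counting error only, and thinning to 15000 UMIs were used for shares of cells.

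The members, the gene lists and the comparisons were chosen with earlier results of these data known. Genes named with values were the 13 mitochondrial genes, SDHA to SDHD, up to 5 called members per direction and comparison, the 3 nuclear members of largest change per line with a mean of at least 10 CPM, paralog pairs, the 3 members of highest level in complexes I, III, IV and V, and UQCRFS1, NDUFV1, ATP5F1A, ATP5F1B and ATP5IF1. NDUFS7, COX8A as a level, NDUFA8, NDUFA3 and the members named by replicate number were chosen after their values were seen, as were the non-member genes. Python 3.11.15 with pandas 2.3.3 and matplotlib 3.10.9 made the sums and plots. Promoter sequences are from RefSeq, of which the first listed start per gene was taken.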

Additional observations from a re-analysis of the deposited data

Results flagged for a closer look

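MT-ND1 moved one way in both treated samples of SCC1 and the other way in both treated samples of SCC25. Its log2 change was 0.19 ± 0.17 in SCC1 and -0.33 ± 0.17 in SCC25 (edgeR estimate ± SE), a difference of 0.52. The interaction of line and treatment did not pass the threshold for this gene, with an edgeR FDR of 0.769 without and 0.239 with the replicate block. With 2 samples in each group, no sample could be examined as an outlier of its group.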

How the results depend on the processing

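With the replicate block the count of members called went from 0 to 1 in SCC1, from 2 to 27 in SCC6, from 2 to 11 across the lines and from 40 to 78 between the untreated lines, and it stayed at 0 in SCC25 and for the interaction. Counts of all genes called moved too and are given beside the members. In SCC6 (682 of 17897 genes called) the count was 0 with library totals alone (856 genes) or with only the samples compared (265 of 15925), 1 without a low-count filter (1233 of 25899), 13 with 1 replicate term shared by the lines (2462, chosen after seeing the data) and 7 in DESeq2 (1666 of 17363). It ranged from 0 to 2, with 11 to 749 genes, when single samples were left out, the 11 being without SCC6 PBS 1: 0 without any one of the 4 SCC1 or the 4 SCC6 samples, and 1 without either treated SCC25 sample. Across the lines (656 genes) it was 0 with library totals alone (679) or no filter (1043), 1 without the MT- genes (652) or without cells over 20% mitochondrial (627), 8 with the shared replicate term (2070) and 6 in DESeq2 (1769), and ranged from 0 to 2, with 202 to 596 genes, when single samples were left out. The cause of these moves was not tested. Gene results called with the block and not without it passed in few alternatives, the block being among them. MT-CO1 in SCC1 passed in 1 of 21, and MT-ATP6 and MT-ND6 across the lines in 1 and 2 of 20. In SCC6, SDHB and ATP5F1B passed in 2 of 22 each and UQCRH in 3 of 22. Across the lines NDUFB10 and NDUFC1 passed in 3 and 4 of 21. ATP5MC1 in SCC6 stayed past the threshold in 12 of 22 alternatives, ATP5F1D in SCC6 in 9 of 22, UQCRH across the lines in 9 of 21 and ATP5MC1 across the lines in 5 of 21. None of the 22 gene results run through the alternatives, those by replicate number included, changed direction. They were picked as called in these data and the alternatives reuse the same samples, so a kept direction says little. The untreated lines gave 29 to 46 members in the other 20 alternatives, and the replicate number 43 to 54 in 18. The cetuximab minus PBS log2 ratio of mitochondrial to nuclear UMIs ranged from 0.07 to 0.39 in SCC1 and 0.10 to 0.35 in SCC6. In SCC25 it ranged from -0.33 to 0.12, and its sign depended on the sample left out. With 2 samples in a group, leaving 1 out always moves the group mean by less than 1 SD. These ranges therefore do not measure stability. Depth limited members of low count that were tested, such as COX8C, with 1 and 1 UMIs in untreated and 6 and 3 in treated SCC6 samples, and COX6B2, with 10 to 37 UMIs per SCC1 sample, and COX4I2, COX6A2, COX7B2 and COX7A1, with 7 UMIs or fewer, could not be compared.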
